A study of Mus musculus with 16 samples.

Results

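Bone marrow-derived dendritic cells (BMDCs) that lack STING were compared with wild-type BMDCs after both had been exposed to c-di-GMP, a cyclic dinucleotide that bacteria use as a messenger. The comparison uses 4 of the 16 samples of the series (2 of Tmem173-/- BMDCs and 2 of wild-type, WT, BMDCs), and it was read across 11318 of the 23356 genes in the deposited table. The labels give C57BL/6 as the background of every sample. The WT mice were bought from a supplier and the Tmem173-/- mice were bred from a line of another laboratory, and the latter carry the deletion in the germline, so every cell of these cultures, and not only the dendritic cells, lacked the gene during its development. Bone marrow of sex-matched mice of 6 to 12 weeks was grown for 6 days with 10 ng/ml GM-CSF and 10 ng/ml IL-4, and the floating and loosely attached cells were taken as BMDCs, with no sort named for these libraries. According to the labels the cells then received 25 ug/ml c-di-GMP (CDG) or no treatment (NT) for 18 h, while the figure legends of the study name a higher dose. The 4 conditions used most are written WT NT, WT CDG, Tmem173-/- NT and Tmem173-/- CDG. Treated and untreated Irf1-/- and Irf3/7-/- BMDCs, which lack the transcription factors IRF1 or IRF3 and IRF7, make up the other 8 samples and appear only beside a value of the STING comparison.

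Poly(A) RNA was sequenced from stranded libraries, and the authors combined the 2 samples of a condition before deposition. The table therefore holds 1 FPKM per gene and condition, a fragment count divided by transcript length and by library size, with the lower and upper bound of a confidence interval and a status. There is no spread between samples, and no test of one, in what follows. The number of reads cannot be read from FPKM. The interval stands in its place as the measure of precision: its bounds lay, at the median, 25.3% away from the FPKM in WT CDG and 25.1% away in Tmem173-/- CDG for genes with at least 10 FPKM, and 28.4% away in both for genes with 1 to 10 FPKM. A gene was called lower or higher in Tmem173-/- CDG when it differed more than 2-fold from WT CDG after 0.1 FPKM was added to each value, when the authors' intervals did not overlap, when at least 1 of the values reached 1 FPKM, and when the status was OK in both conditions. In the text, lower, higher, fell and rose are used of the knockout against WT and only of genes called by this rule. Loci are given as the table lists them, which match the GRCm38 assembly. A log2 difference is always Tmem173-/- minus WT on the log2(FPKM + 0.1) scale, and a range in parentheses is the authors' interval.

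STING, the product of Tmem173, is a membrane protein of the endoplasmic reticulum that binds cyclic dinucleotides, either from bacteria or made by the enzyme cGAS when it meets DNA in the cytosol. Bound STING moves to the Golgi and recruits the kinase TBK1, which phosphorylates IRF3, and it also activates NF-kB. The resulting type I interferon acts through its receptor, the kinases JAK1 and TYK2 and the factors STAT2 and IRF9, among others, on a large set of target genes, many of which carry an interferon-stimulated response element, a pair of GAAA blocks, near their start.

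To show such elements in genes of this comparison, the promoter windows of RefSeq (assembly GRCm38.p6, 250 bases before to 50 after the start) were searched on both strands for GAAA, any 2 bases and GAAA again. The stretches shown are those of the 8 genes with the largest falls among the function lists used here that have the letters before their start, so they were picked for holding the letters and are no evidence that the letters go with the falls. Each is written 5' to 3' on the strand of its gene, and capitals mark every match to these letters or to their reverse complement.

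Rsad2 (chr12:26456543-26456592, minus strand): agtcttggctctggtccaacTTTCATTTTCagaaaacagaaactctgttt
Cxcl10 (chr5:92349073-92349122, minus strand): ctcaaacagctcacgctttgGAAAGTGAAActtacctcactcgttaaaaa
Ifit3 (chr19:34583353-34583436, plus strand): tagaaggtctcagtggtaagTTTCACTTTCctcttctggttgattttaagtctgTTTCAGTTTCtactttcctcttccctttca
Ifit1 (chr19:34640765-34640833, plus strand): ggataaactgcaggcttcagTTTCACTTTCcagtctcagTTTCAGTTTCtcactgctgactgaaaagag
Tgtp1 (chr11:48992294-48992343, minus strand): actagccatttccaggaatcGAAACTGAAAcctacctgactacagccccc
Isg15 (chr4:156200855-156200916, minus strand): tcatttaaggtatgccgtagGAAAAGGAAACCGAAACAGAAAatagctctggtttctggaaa
Tgtp2 (chr11:49064253-49064302, minus strand): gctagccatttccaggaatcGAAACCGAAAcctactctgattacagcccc
Oas1g (chr5:120887596-120887651, minus strand): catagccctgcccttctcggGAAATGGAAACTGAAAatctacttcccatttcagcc

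Ifit3 and Ifit1 held 2 separate matches each, Oas1g 2 that overlap, and Isg15 a run of 3 overlapping matches. The nearest match lay between 2 bases before the start in Oas1g and 203 bases before it in Cxcl10. Tgtp1 and Tgtp2 are near-identical copies of one gene. Over all 32851 windows of the table, 3.44% held the GAAA pair, 8.30% held TTCNNNGAA (the core of the interferon gamma element called GAS) and 0.411% held GGGA, any base and TTTCC (an NF-kB site). Shares among the genes called lower or higher are not given, because a window was found for only 77.2% of the former and 79.1% of the latter, under the 80% set for such a check. The levels of these 8 genes are described with their groups.

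After c-di-GMP, 1524 of the 11318 genes tested were lower in Tmem173-/- than in WT BMDCs (13.5%) and 1456 were higher (12.9%), 26.3% together. The falls were the larger changes: 406 of the lower genes differed more than 8-fold and 64 more than 64-fold, against 107 and 4 of the higher genes. The median log2 difference was -1.95 among lower genes, 1.60 among higher genes and 0.02 over all genes tested. In 219 further genes the values differed more than 2-fold but the intervals overlapped. The lower genes made up 32.3% of the summed FPKM in WT CDG and 7.58% in Tmem173-/- CDG. A large piece of that was a single chemokine gene, Ccl5, with 36577 FPKM in WT CDG or 5.88% of the sum, and 248 FPKM in Tmem173-/- CDG or 0.0485%. The higher genes made up 3.27% of the sum in WT CDG and 15.9% in Tmem173-/- CDG.

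**Figure D1:**
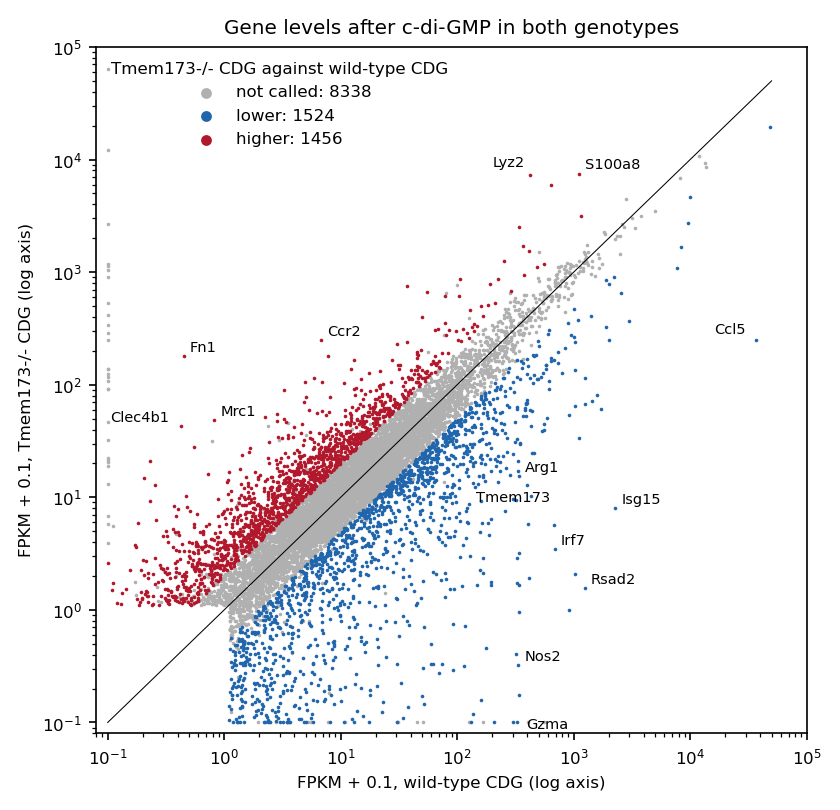
FPKM + 0.1 of each of the 11318 genes tested, WT CDG on the horizontal and Tmem173-/- CDG on the vertical log axis, coloured by call. Blue points (1524 lower) reach much farther from the diagonal than red points (1456 higher), and Ccl5 and Isg15 lie far below it. Grey points at the left edge are listed at 0 in WT CDG and are all small RNA genes.

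The genes called in each direction were followed through all 4 conditions. The lower genes had a median of 8.51 FPKM in WT NT, 22 in WT CDG, 4.05 in Tmem173-/- NT and 4.22 in Tmem173-/- CDG. The higher genes had medians of 8.25, 3.46, 11.6 and 11.9 FPKM in the same order. The WT median of the lower genes was more than 2-fold larger with treatment than without, that of the higher genes more than 2-fold smaller, and the knockout medians with and without treatment lay within 1 FPKM of each other. Because these genes were chosen by WT CDG and Tmem173-/- CDG, their medians are a description and some distance of WT CDG from the other conditions is built in. In treated Irf1-/- and Irf3/7-/- BMDCs the medians were 15.8 and 19.6 FPKM for the lower genes and 4.0 and 4.23 FPKM for the higher ones, each nearer to WT CDG than to Tmem173-/- CDG.

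The targeted gene was read first. Tmem173 (chromosome 18, 35733677 to 35740554, as listed) had 118 FPKM (89.3 to 146) in WT CDG and 7.49 FPKM (5.51 to 9.45) in Tmem173-/- CDG, with 103 and 8.97 FPKM in the untreated cells. The knockout was lower in both states, with log2 differences of -3.96 and -3.51. The FPKM covers the whole gene, so what remains cannot be assigned to exons outside or inside the deletion. Of the 28 genes tested within 1 Mb of Tmem173, 2 were lower and 3 higher, where the shares over all genes tested were 13.5% and 12.9%.

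The cells in the cultures were checked by markers, because BMDC cultures can hold other bone marrow cells and the libraries are bulk RNA. Fewer cells of a type and less RNA per cell cannot be told apart in them. Genes of T and NK cells were lower in Tmem173-/- CDG in 16 of 18 tested, with a median log2 difference of -4.72, and the list summed to 1352 FPKM in WT CDG and 22 in Tmem173-/- CDG. Gzma (chromosome 13, 113093826 to 113100981), a granzyme of cytotoxic cells, had 349 FPKM in WT NT and 329 (239 to 412) in WT CDG and was listed at 0 in both knockout conditions. Gzmb had 336 FPKM in WT CDG and 0.0750 in Tmem173-/- CDG, and Gzmc, at 206 FPKM in WT CDG, was listed at 0. Cd3e, a chain of the T cell receptor complex, was at 5.41 and 0.0103 FPKM, Cd8a at 16.5 and 0.414 FPKM, and the cytokine receptor chain Il2rb at 37.7 and 0.0385 FPKM. The NK receptor Ncr1 and Cd4 were under 0.3 FPKM in all 4 conditions. The difference was there without c-di-GMP, where 18 of 19 genes of the list were lower (median -5.32) and the list summed to 1203 FPKM in WT NT and 26.0 in Tmem173-/- NT. The same list summed to 125 FPKM in Irf1-/- CDG and 4297 in Irf3/7-/- CDG.

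Genes of neutrophils and their precursors went the other way. Of 14 tested, 12 were higher in Tmem173-/- CDG and none was lower, with a median of 2.73, and the list summed to 2092 FPKM in WT CDG and 15241 in Tmem173-/- CDG. S100a8 and S100a9, the subunits of the calcium-binding protein calprotectin, had 1105 and 643 FPKM in WT CDG against 7513 and 5974 in Tmem173-/- CDG. Ltf, which encodes the granule protein lactoferrin, had 12.2 FPKM (9.37 to 15.0) and 137 FPKM (105 to 169). Mmp8, the neutrophil collagenase, had 4.87 and 106 FPKM. The serine proteases Elane and Prtn3 were at 0.687 and 2.26 FPKM in WT CDG and at 31.4 and 43.1 in Tmem173-/- CDG, but lie in a listed locus shared by 47 genes and have intervals that overlap. In untreated cells 11 of 14 were higher and 1 lower, and the sums were 4234 and 20809 FPKM. Of the other lists, 3 of 10 basophil and mast cell genes were lower and 1 higher, 3 of 5 B cell genes tested were higher, and both stromal genes that could be tested were lower. Most genes of the last lists were not tested, 6 of 11 for B cells and 8 of 10 for stroma. Where a gene reached 1 FPKM in only 1 treated condition, the minimum admitted it through the condition where it was high, which fixes its direction. The lower basophil and mast cell genes were Hdc, Prss34 and Il4. Hdc, which makes histamine, was high in WT CDG alone, at 79.1 FPKM against 3.45 in WT NT, 3.56 in Tmem173-/- NT and 3.69 in Tmem173-/- CDG. Mcpt8 and Cpa3, which mark basophils and mast cells, were at 24.5 and 12.3 FPKM in WT CDG and 20.2 and 13.3 in Tmem173-/- CDG, without a call. None of 4 sex-specific genes tested was called. How far the difference in T and NK or in neutrophil genes takes part in the other differences of the comparison was not tested.

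**Figure D2:**
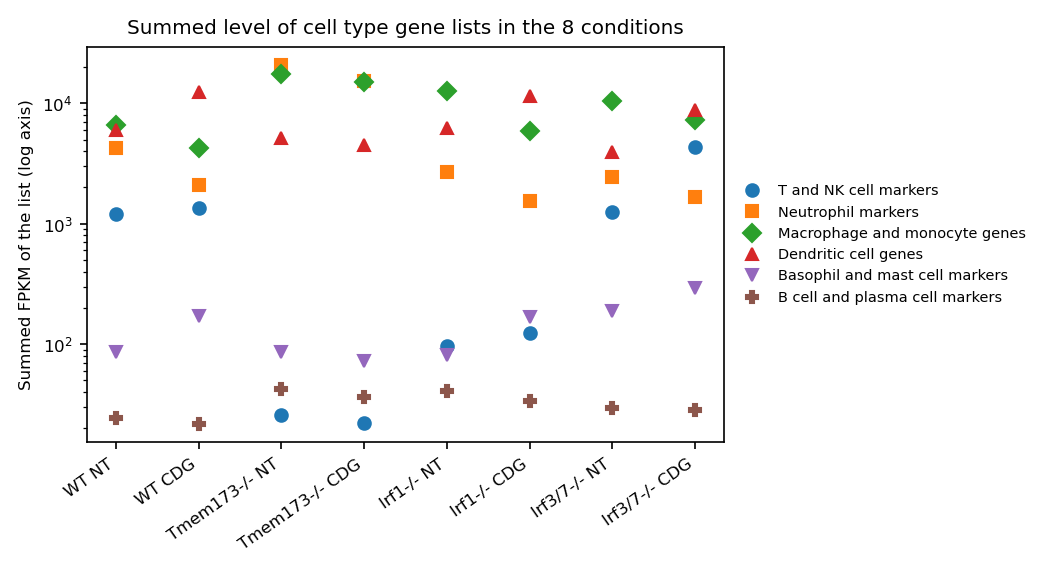
Summed FPKM (log axis) of 6 lists of cell type genes in each of the 8 conditions, 1 point per list and condition; genes without status OK in all conditions are left out. The T and NK list falls to 22 FPKM in Tmem173-/- CDG against 1352 in WT CDG, and the neutrophil list lies at 15241 against 2092 FPKM.

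The gene lists of known function are taken up by role, from the sensors to the effectors. Where a list is summarised, its median log2 difference is to be read against 0.02 over all genes tested, and its share of lower or higher genes against 13.5% and 12.9%.

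**Figure D3:**
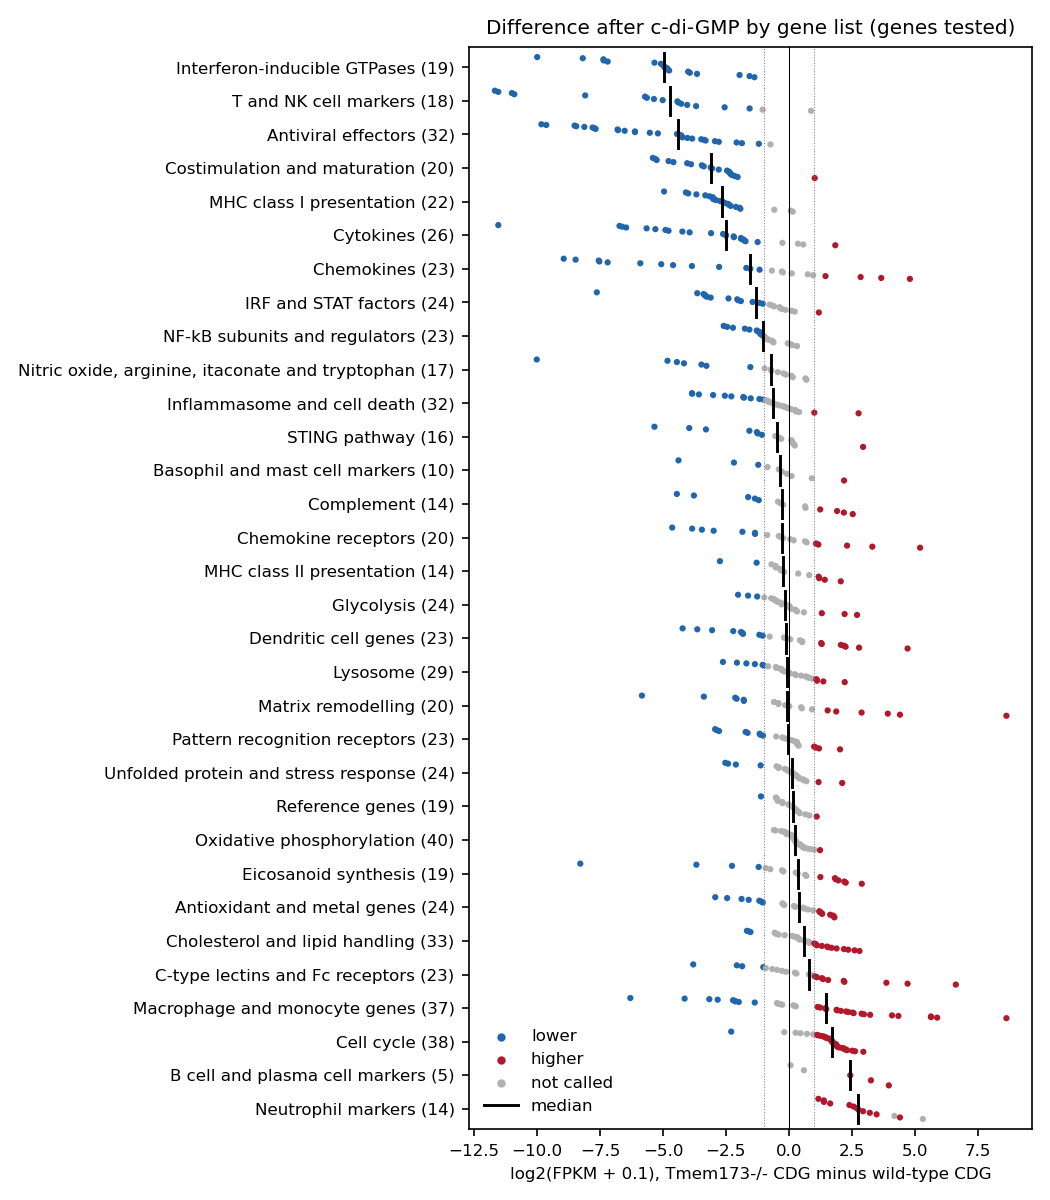
Log2 difference, Tmem173-/- CDG minus WT CDG on log2(FPKM + 0.1), for every tested member of the lists with at least 5 tested genes (number in parentheses), coloured by call, with the list median as a black bar. Interferon-inducible GTPases (median -4.94) and antiviral effectors (-4.40) lie far left, and cell cycle (1.72) and neutrophil genes (2.73) far right.

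Among the genes of the STING pathway itself, 7 of 16 were lower and 1 higher. Ifi204, an IFI16-like sensor of DNA, had 187 FPKM (142 to 232) in WT CDG and 4.51 (3.17 to 5.84) in Tmem173-/- CDG, and 14.8 and 4.58 FPKM without treatment. Trex1, the exonuclease that degrades cytosolic DNA, had 325 and 33.0 FPKM after c-di-GMP. Samhd1, Ticam1 and the kinase Tbk1 fell by less, with log2 differences of -1.27, -1.24 and -1.07, and none of these 3 was called in untreated cells. The enzyme upstream of STING, cGAS (Mb21d1), was not called, with 10.2 FPKM (7.68 to 12.6) in WT CDG and 8.20 (6.30 to 10.1) in Tmem173-/- CDG, nor were Irf3 at 15.8 and 17.0 FPKM, Mavs at 10.6 and 11.8 FPKM and Ikbke at 46.3 and 54.6 FPKM. Slc19a1, the reduced folate carrier, which also takes up cyclic dinucleotides, was the higher gene, with 0.784 FPKM (0.473 to 1.09) in WT CDG against 6.72 (4.83 to 8.59) in Tmem173-/- CDG. Its levels of 6.58 FPKM in WT NT and 7.20 in Tmem173-/- NT place WT CDG apart from the other conditions.

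The factors that carry interferon signals were lower in 14 of 24 and higher in 1 (median -1.31). Irf7 (chromosome 7, 141263182 to 141266424) had the largest fall of the list, from 687 FPKM (504 to 871) to 3.37 (2.35 to 4.39). Irf8, which directs dendritic cell and monocyte development, had 303 and 24.2 FPKM, and Irf1 245 and 23.3 FPKM. Stat2 and Irf9, parts of the factor ISGF3 downstream of the interferon receptor, had 155 and 59.2 FPKM in WT CDG and 15.4 and 14.6 in Tmem173-/- CDG. The feedback inhibitors Socs1 and Socs3 were lower too, with log2 differences of -3.34 and -3.11. Of the interferon receptor chains, Ifnar1 (18.2 and 21.4 FPKM), Ifnar2 (57.5 and 33.7 FPKM) and Ifngr2 (94.5 and 59.5 FPKM) were not called, and Ifngr1 was higher, at 23 FPKM (17.4 to 28.7) in WT CDG and 52.7 (39.7 to 65.5) in Tmem173-/- CDG. Irf4 had 173 and 84.2 FPKM, a log2 difference of -1.04 that is just past the threshold, while Irf2 (51.5 and 42.3 FPKM) and Irf5 (368 and 286 FPKM) were not called.

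Of 18 genes of type I and type III interferons in the table, 16 were listed at 0 in Tmem173-/- CDG and 9 in WT CDG. Ifna4 and Ifnb1 were the members that reached 1 FPKM in either treated condition, both in WT. Ifna4 had 3.53 FPKM (1.91 to 5.06) there and was listed at 0 in the other 3 conditions, and Ifnb1 had 2.93 FPKM (1.76 to 4.08) in WT CDG and 0.0474 in Tmem173-/- CDG. Both were called lower, a direction that was fixed because the 1 FPKM minimum admitted them through WT CDG alone.

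Antiviral effectors were lower in 31 of 32 genes, with a median of -4.40, and were lower in 27 of 32 before treatment, with a median of -2.0. Rsad2, which encodes viperin, had 3.99 FPKM in WT NT, 1245 (899 to 1588) in WT CDG, 0.684 in Tmem173-/- NT and 1.46 (0.998 to 1.92) in Tmem173-/- CDG. Oasl1 (chromosome 5, 114923239 to 114937911), of the family of oligoadenylate synthetases, had 8.92, 911, 0.547 and 0.898 FPKM in that order. In both genes WT CDG stood alone, and the knockout values with and without c-di-GMP were within 1 FPKM of each other. Ifit3 and Ifit1, which bind viral RNA, fell with log2 differences of -8.51 and -8.45. Isg15, a ubiquitin-like modifier, had 2262 FPKM in WT CDG and 7.99 in Tmem173-/- CDG, and Oas1g 30.4 and 0.231. The RNA sensors Ifih1 (MDA5) and Ddx58 (RIG-I) had 69.7 and 61.6 FPKM in WT CDG and 4.18 and 6.13 in Tmem173-/- CDG. Over the list, the treated difference exceeded the untreated one by a median of 3.02 on the log2 scale.

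The interferon-inducible GTPases, which attack the vacuoles of intracellular pathogens, were lower in 19 of 19 (median -4.94). Iigp1 had 45.9 FPKM in WT NT, 161 (123 to 199.6) in WT CDG, 0.00647 in Tmem173-/- NT and 0.0574 in Tmem173-/- CDG. Tgtp1 and Tgtp2, whose reads a counter may split between the copies, had 49.7 and 32.7 FPKM in WT CDG and 0.0706 and 0.123 in Tmem173-/- CDG. Among guanylate-binding proteins, Gbp6 fell from 50.7 to 0.207 FPKM and Gbp2, the most abundant, from 1036 (772 to 1298) to 64.6 (49.5 to 79.6) FPKM, while Gbp1 was low in both, at 1.83 and 0.646 FPKM. Without c-di-GMP, 17 of 17 tested were lower as well (median -3.37). Ifng, the gene of the interferon that T and NK cells make and that drives many of these GTPases, had 34.6 FPKM in WT NT and 299 (205 to 367) in WT CDG and was listed at 0 in both knockout conditions. The T and NK list, of which Ifng is a member, summed to 1352 FPKM in WT CDG and 22 in Tmem173-/- CDG. The part of that list in the falls of the GTPases was not tested.

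Antigen presentation on MHC class I was lower in 19 of 22 genes (median -2.67). H2-K1 and H2-D1, the classical heavy chains, had 2003 (1479 to 2527) and 1893 (1367 to 2421) FPKM in WT CDG and 249 (187 to 310.4) and 327 (248 to 406) in Tmem173-/- CDG. B2m, the light chain, had 8294 and 1668 FPKM. The peptide transporter genes Tap1 and Tap2 had log2 differences of -3.0 and -2.41, and the immunoproteasome subunits Psmb8, Psmb9 and Psmb10 of -1.93, -2.62 and -2.37. Among the non-classical heavy chains, H2-Q7, H2-T22 and H2-Q4 had 183, 159 and 334 FPKM in WT CDG against 5.79, 9.21 and 20.8, with the caution that heavy chain genes are alike in sequence. Nlrc5, the transactivator of class I genes, had 71.8 and 5.53 FPKM. The chaperones Calr (596 and 627 FPKM) and Pdia3 (300.5 and 335 FPKM), which serve other proteins too, were not called, nor was the trimming peptidase Erap1.

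MHC class II differed from this: 2 of 14 genes were lower, 4 higher (2 with a pseudocount of 1 FPKM) and 8 not called (median -0.25). H2-Ab1, H2-Aa and H2-Eb1, the classical chains, had 890.2, 1424 and 729 FPKM in WT CDG and 720.2, 1113 and 505 in Tmem173-/- CDG, and Cd74, the invariant chain, 4983 and 3462. None of these 4 was called. H2-Oa, part of an inhibitor of peptide loading, and Ciita, the class II transactivator, were lower, at 58.6 against 8.68 and 38.5 against 15.8 FPKM. March1, the ubiquitin ligase that removes class II from the surface, was higher, with 8.27 FPKM in WT NT, 8.25 (6.32 to 10.2) in WT CDG, 24.2 in Tmem173-/- NT and 34.8 (26.0 to 43.6) in Tmem173-/- CDG. Ifi30, a thiol reductase of the loading compartment, was also higher, at 148 and 335 FPKM.

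Costimulation and maturation genes were lower in 19 of 20, by log2 differences between -5.41 for Cd40 and -2.04 for Pdcd1lg2, with a median of -3.08. Cd40, through which T cells license dendritic cells, had 37.0 FPKM in WT NT, 432 (325 to 539.5) in WT CDG, 9.82 in Tmem173-/- NT and 10.1 (7.48 to 12.7) in Tmem173-/- CDG. Cd80 and Cd86, the ligands of CD28, had 207 and 255 FPKM in WT CDG and 39.8 and 36.9 in Tmem173-/- CDG. The inhibitory ligand Cd274 (PD-L1) moved with them, at 398 and 72.5 FPKM. Slamf1 and Tnfsf10 (TRAIL) had 45.1 and 16.2 FPKM against 1.05 and 0.326. Ccr7, the receptor that takes maturing dendritic cells to lymph nodes, had 1257 and 114 FPKM. Icosl, the ligand of ICOS, was the higher gene, at 9.70 (7.45 to 11.9) and 19.9 (15.5 to 24.2) FPKM, a call that is lost with a pseudocount of 1 FPKM. Before treatment 12 of 20 were lower, and Cd80, Cd86 and Cd274 were not among them, with untreated log2 differences of -0.59, -0.96 and -0.53.

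Cytokine genes were lower in 22 of 26 and higher in 1 (median -2.50). The subunits of IL-12 and IL-23 all fell: Il12b (chromosome 11, 44400062 to 44414017), which both share, had 4.59, 148, 0.892 and 1.57 FPKM in WT NT, WT CDG, Tmem173-/- NT and Tmem173-/- CDG, Il12a was at 6.57 and 0.142 FPKM in the treated cells, and Il23a at 7.81 and 0.10. Il27 and Ebi3, the subunits of IL-27, had 20.6 and 240.4 FPKM in WT CDG and 0.110 and 39.2 in Tmem173-/- CDG. Il6 had 339 FPKM (228 to 409.7) and 3.09 (1.98 to 4.17). Il1a and Il1b, the IL-1 cytokines, had 389.5 and 611 FPKM against 68.8 and 107. Il1rn, their receptor antagonist, was lower after treatment and higher before it: 114 FPKM (82.9 to 144) in WT NT and 244 (185 to 303) in Tmem173-/- NT, but 952 (723 to 1181) in WT CDG and 277 (212 to 341) in Tmem173-/- CDG. Tnf was not called, at 91.1 (68.4 to 114) and 76.1 (57.1 to 94.3) FPKM, nor was Tgfb1, at 97.4 and 145 FPKM. Csf2, which encodes GM-CSF, had 7.92 FPKM in WT NT and 4.93 in WT CDG and was listed at 0 in both knockout conditions. Il16 was the higher gene, at 1.93 and 7.19 FPKM.

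Chemokines were lower in 13 of 23 and higher in 4. The ligands of CXCR3 fell farthest together with Ccl24 and Ccl5. Cxcl10 (chromosome 5, 92331840 to 92414627) had 1037 FPKM (710.2 to 1332) in WT CDG and 2.0 (1.16 to 2.82) in Tmem173-/- CDG, Cxcl9 52.2 and 0.0470, and Cxcl11 22.7 and 0.0233. The listed locus of Cxcl10 runs past its promoter stretch shown above, so it covers more than that gene. Ccl5 (chromosome 11, 83525778 to 83530518) had 36577 FPKM (21537 to 37102) in WT CDG and 248 (144 to 256) in Tmem173-/- CDG. Ccl2 and Ccl7, ligands of CCR2, had 1087 and 321 FPKM against 376 and 9.44. Ccl24, an eosinophil attractant, was lower in both states, at 746 FPKM in WT NT, 327 in WT CDG, 1.97 in Tmem173-/- NT and 1.64 in Tmem173-/- CDG. Ccl17, a ligand of CCR4 and one of the most abundant transcripts of these cells, was not called, at 13781 (7791 to 15825) and 8619.5 (4989 to 9575) FPKM, and neither were Ccl3 and Ccl4. Ppbp and Pf4, chemokines of platelets and myeloid precursors, were higher, at 3.13 and 12.9 FPKM in WT CDG and 90.5 and 166 in Tmem173-/- CDG, and so was Ccl6, at 1162 and 3185. Ccl22 could not be compared, since its status in WT CDG was not OK.

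Among chemoattractant receptors, 7 of 20 were lower and 5 higher. Ccr2, which brings monocytes to inflamed tissue, had 135 FPKM in WT NT, 6.62 (4.79 to 8.45) in WT CDG, 233 in Tmem173-/- NT and 249 (189.7 to 309) in Tmem173-/- CDG. It is among the largest rises of the comparison, and the untreated values of both genotypes lay within 2-fold of each other. Cxcr2, the neutrophil receptor, was higher with c-di-GMP, at 7.20 and 16.4 FPKM, and lower without it, at 72.4 and 15.4. P2ry6, a receptor for UDP, was higher, with a log2 difference of 2.31. Ccrl2, a receptor that does not signal, had 104 FPKM in WT CDG and 7.17 in Tmem173-/- CDG, with 5.0 and 8.17 FPKM untreated. Cxcr6 was at 0.126 FPKM in Tmem173-/- CDG against 5.52 in WT CDG, and Ccr7 is described with the maturation genes. Ccr1 and Cxcr4 were not called.

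**Figure D4:**
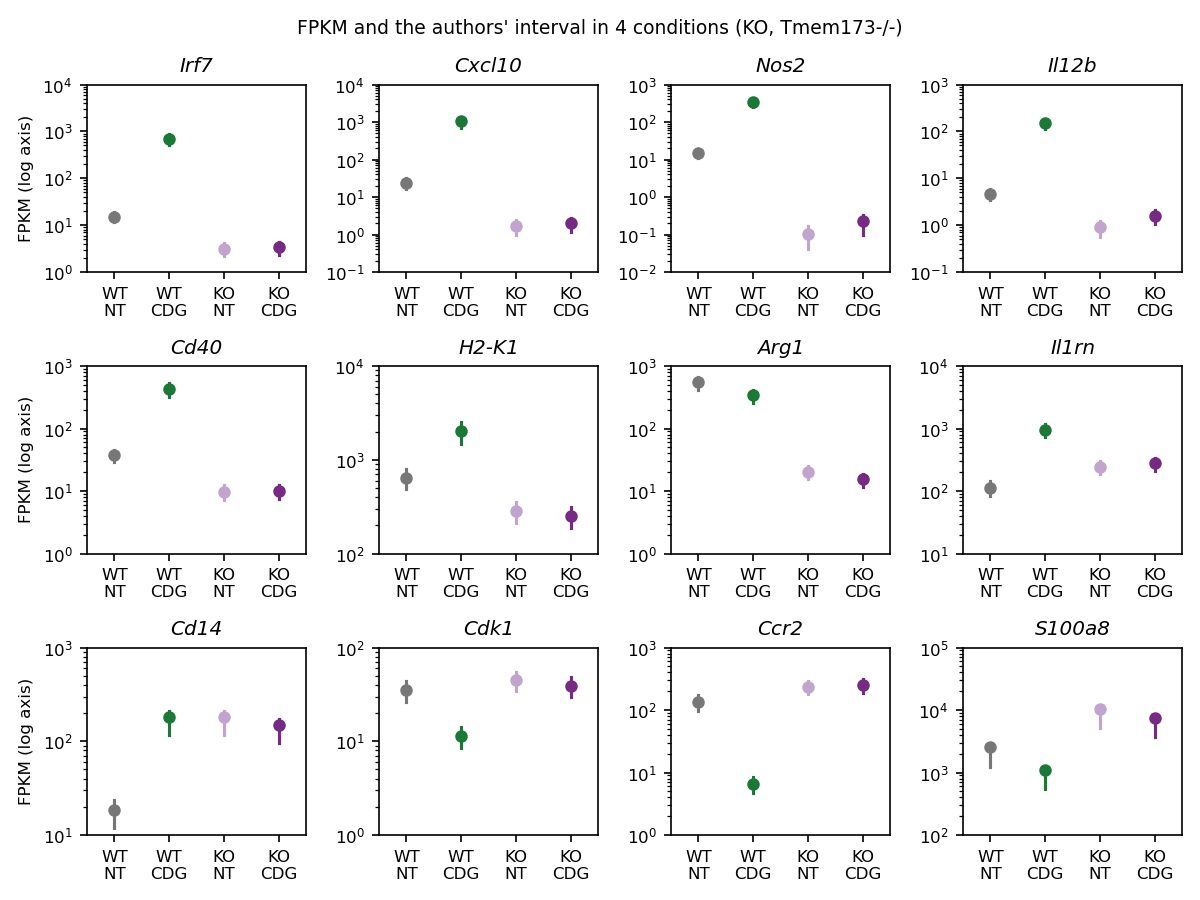
FPKM (points) and the authors' interval (lines) of 12 genes in WT NT, WT CDG, Tmem173-/- NT and Tmem173-/- CDG on log axes. Irf7, Cxcl10, Il12b and Cd40 stand high in WT CDG alone, Ccr2 and Cdk1 stand low there, Cd14 stands low in WT NT alone, and Arg1 is low in both knockout conditions; S100a8 has points above their own intervals.

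Nos2 and Arg1, enzymes that both use arginine, were lower in Tmem173-/- BMDCs. Nos2 (chromosome 11, 78920858 to 78960124), the inducible nitric oxide synthase, had 15.2 FPKM in WT NT, 334 (248 to 420.3) in WT CDG, 0.102 in Tmem173-/- NT and 0.222 (0.0997 to 0.339) in Tmem173-/- CDG. Arg1, the arginase of macrophages activated by IL-4 had 549 FPKM in WT NT, 339 (261 to 418) in WT CDG, 20.2 in Tmem173-/- NT and 15.4 (11.8 to 19.1) in Tmem173-/- CDG. Both were lower in the untreated knockout too, and the order of the WT values differed, with Nos2 larger and Arg1 smaller in WT CDG than in WT NT. Irg1, which makes itaconate, had 1717 and 60.5 FPKM, the arginine transporter gene Slc7a2 212 and 21.8, and Ido1, which degrades tryptophan, 3.36 and 0.0924. In all 7 of 17 genes of the list were lower and none was higher, and the second arginase gene, Arg2 (11.7 and 7.03 FPKM), and Ass1 and Asl, which regenerate arginine, were not called.

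Genes of inflammasomes and cell death were lower in 11 of 32 and higher in 2. Casp4, whose product (caspase-11) binds bacterial lipopolysaccharide, had 125 FPKM (96.2 to 154) in WT CDG and 8.59 (6.39 to 10.8) in Tmem173-/- CDG. Zbp1 and Mlkl, a sensor and the pore-forming effector of necroptosis, had 264 and 81.4 FPKM against 18.3 and 10. Casp1, the protease of pyroptosis, and Gsdmd, its pore-forming substrate, had log2 differences of -2.29 and -1.17, and neither was called in untreated cells. The sensor Nlrp3 (23.6 and 31.4 FPKM), the adaptor Pycard (83.1 and 85.5 FPKM) and Ripk3 (31.2 and 29.8 FPKM) were not called. Nlrp1b was higher, at 0.315 FPKM in WT CDG and 2.73 in Tmem173-/- CDG, and so was Bcl2, which inhibits apoptosis, at 2.51 and 5.16 FPKM.

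Of the pattern recognition receptors, 8 of 23 were lower and 4 higher. Tlr3, Nod1 and the kinase Ripk2 downstream of NOD proteins had 6.77, 22.9 and 141 FPKM in WT CDG and 0.801, 3.06 and 20.5 in Tmem173-/- CDG. Tlr7 fell to 5.80 from 11.9 FPKM, and was higher in the knockout without treatment, 4.66 against 2.14 FPKM. Tlr8 and Tlr13, receptors for RNA, and Ly86, which encodes the partner MD-1 of the receptor RP105, were higher, at 5.58, 15.2 and 11.3 FPKM in WT CDG and 11.8, 35.1 and 46.6 in Tmem173-/- CDG. Tlr4 (32.5 and 37.8 FPKM), Tlr2 (67.3 and 83.9 FPKM) and Myd88 (72.3 and 91.1 FPKM) were not called. The C-type lectins and Fc receptors were lower in 4 of 23 and higher in 10. Clec4b1 had the largest difference, 0.329 FPKM (0 to 0.693) in WT CDG against 42.5 (31.2 to 53.8) in Tmem173-/- CDG, with 30.0 and 60.2 FPKM untreated. Clec4a2 and Clec4n (Dectin-2) had 4.71 and 367 FPKM in WT CDG against 70.5 and 1692. Fcgr4, an activating Fc receptor, and Clec4e (Mincle) were lower, at 47.6 and 234 FPKM in WT CDG and 3.32 and 55.7 in Tmem173-/- CDG.

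The NF-kB list was lower in 12 of 23 and higher in none (median -1.02), against 1 of 23 in untreated cells, Rel. Nfkbib and Nfkbia, inhibitors of NF-kB, had log2 differences of -2.59 and -1.22, the ubiquitin editor Tnfaip3 (A20) of -2.22, and the adaptor Traf1 of -2.45. The subunits Nfkb1, Nfkb2, Rel and Relb were lower, with -1.05, -1.75, -1.13 and -1.13. Rela had 55.8 (41.7 to 69.8) and 28.7 (21.0 to 35.9) FPKM, just inside the 2-fold threshold, and the kinase genes Chuk (25.0 and 26.3 FPKM) and Ikbkb (36.7 and 23.5 FPKM) were not called.

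Eicosanoid genes were lower in 4 of 19 and higher in 7. Ptgs2 (COX-2), the inducible cyclooxygenase, had 1.28 FPKM in WT NT, 92.1 (69.7 to 114) in WT CDG, 0.130 in Tmem173-/- NT and 0.195 (0.0959 to 0.288) in Tmem173-/- CDG. Ptges, which makes prostaglandin E2 from its product, had 0.470, 20.8, 1.77 and 1.54 FPKM in that order, lower with treatment and higher without. Ptgs1 (COX-1), the constitutive enzyme, went the other way, with 96.4 FPKM in WT NT, 14.6 (11.2 to 18.1) in WT CDG, 58.1 in Tmem173-/- NT and 67.8 (51.7 to 83.9) in Tmem173-/- CDG. Thromboxane synthase (Tbxas1) was at 14.9 and 112 FPKM after treatment. Of the leukotriene genes, Alox5ap, Lta4h and the leukotriene B4 receptor gene Ltb4r1 were higher, by 1.86, 1.97 and 2.26, while Ltc4s, which makes the cysteinyl leukotrienes, was lower, at 80.3 and 16.7 FPKM. Alox5 itself was not called, at 18.4 and 28.8 FPKM.

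Macrophage and monocyte genes were higher in 21 of 37 and lower in 9 (median 1.46). Fn1 (chromosome 1, 71585472 to 71653234), which encodes fibronectin, had the largest rise of the comparison: 10.8 FPKM in WT NT, 0.350 (0.197 to 0.512) in WT CDG, 168 in Tmem173-/- NT and 180.1 (125 to 236) in Tmem173-/- CDG. Mrc1, the mannose receptor, had 0.721 and 48.7 FPKM, and F13a1, a transglutaminase of monocytes, 0.155 and 12.7. F13a1 was as far apart without treatment, at 0.138 and 12.5 FPKM, whereas the values of Fcrls (0.456 and 27.7 FPKM treated, 30.4 and 40.2 untreated) were called with c-di-GMP and not without it. Csf1r, the receptor on which macrophages depend, had 48.6 (37.2 to 60.0) and 204 (156 to 252) FPKM, and Lyz2 (lysozyme M) 423 and 7240.2. The complement genes C1qa, C1qb and C1qc, made mainly by macrophages, were higher by 2.54, 1.91 and 1.25. Adgre1, listed as Emr1, which encodes the macrophage marker F4/80, was not called, at 18.3 and 21.4 FPKM, and Vsig4, of tissue macrophages, was listed at 0 in all 4 conditions. The lower members included Ly6c2, of inflammatory monocytes, at 727 and 156 FPKM, and Mertk, a receptor for dying cells, at 16.9 and 3.74 FPKM.

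Within the same list, the genes that IL-4 is known to induce did not move as a block. Retnla, a secreted protein of IL-4-activated macrophages, was lower, with 499.9 FPKM in WT NT, 166 in WT CDG, 3.84 in Tmem173-/- NT and 2.01 in Tmem173-/- CDG, and Ear11 was at 340.4, 437, 47.4 and 24.6 FPKM in that order. Chi3l3 (Ym1) was lower after treatment, at 7751 against 1091 FPKM, and its WT NT value failed the authors' status. Mgl2 and Clec10a, lectins of the same state, were higher, at 184 and 3.46 FPKM in WT CDG and 506 and 33.3 in Tmem173-/- CDG. Mgl2, Clec10a and Mrc1 had their lowest value in WT CDG. Retnla, Arg1 and Ccl24 had their highest values in WT without treatment.

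The label of the cells was checked against dendritic cell genes. Itgax (CD11c) had 135 FPKM in WT CDG and 328 in Tmem173-/- CDG, the dendritic cell factor Zbtb46 15.9 and 14.8, and Flt3, the receptor of steady-state dendritic cell precursors, 1.17 and 1.73, so both cultures held the defining CD11c and Zbtb46 transcripts and little Flt3. Of 23 genes of the list 9 were lower and 7 higher (median -0.10). Irf8, Batf3 and Xcr1, of the dendritic cells that cross-present antigen, were lower, with Batf3 at 213 and 56.8 FPKM, but Clec9a and Itgae, of the same cells, were higher, at 0.470 and 0.292 FPKM in WT CDG and 2.29 and 2.61 in Tmem173-/- CDG. Cst3 (cystatin C) fell from 9604 to 2714 FPKM. Id2 and Cd24a rose by 1.31 and 2.25 on the log2 scale.

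The genes of DNA replication and mitosis were higher in 32 of 38 and lower in 1, with a median of 1.72. In untreated cells none was higher and 1, Ccnd1, was lower, with a median of 0.14. Kif20a, a kinesin of cell division, had 17.0 FPKM in WT NT, 2.66 (0.740 to 4.59) in WT CDG, 19.5 in Tmem173-/- NT and 21.4 (12.8 to 30.0) in Tmem173-/- CDG, and Cdc20, which activates the anaphase-promoting complex, 30.4, 4.12, 32.5 and 26.0. Cdk1, the mitotic kinase, had 11.4 (8.43 to 14.3) and 38.7 (29.3 to 48.0) FPKM. In each of these, WT CDG was the low value and the other 3 lay close together. The replication helicase genes Mcm2 to Mcm7 rose by log2 differences between 1.18 (Mcm6) and 1.69 (Mcm2), which is less than the mitotic genes named. Mki67, which marks cycling cells, was at 21.0 (15.3 to 28.9) and 41.0 (30.1 to 57.2) FPKM and was not called, nor was Pcna, at 143 and 234 FPKM. Ccne1, a cyclin of entry into S phase, was the lower gene, at 113 (85.8 to 139) and 22.9 (17.3 to 28.5) FPKM, and the related cyclin gene Ccne2 was higher, at 1.59 and 5.80 FPKM.

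Genes of cholesterol and lipid handling were higher in 13 of 33 and lower in 3 (median 0.62). Sqle, an enzyme of cholesterol synthesis, had 4.67 (3.36 to 5.99) FPKM in WT CDG against 29.0 (21.8 to 36.2) in Tmem173-/- CDG. Scd1 and Scd2, which introduce double bonds into fatty acids, had 1.66 and 16.2 against 7.93 and 83.2 FPKM, and Fasn 6.29 against 18.6. The lower genes were Ch25h, which makes 25-hydroxycholesterol, at 7.54 and 2.46 FPKM, Nr1h3 (LXR alpha), at 6.85 and 2.09, and Pmvk, at 63.5 and 22.

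In energy metabolism, glycolysis genes were called at close to the shares over all genes tested (13.5% lower, 12.9% higher), and oxidative phosphorylation genes well below them. Of 24 genes of glycolysis 3 were lower and 3 higher, and the lower ones were the hexokinases Hk1, Hk2 and Hk3, at 68.6, 45.1 and 205 FPKM in WT CDG and 22.2, 18.8 and 50.5 in Tmem173-/- CDG. The isozymes Aldoc, Eno3 and Ldhb were the higher ones, each under 5 FPKM in WT CDG. Of 40 genes of oxidative phosphorylation, 1 was higher (Ndufa4, at 66.5 and 157 FPKM) and none lower, with a median of 0.24.

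Secreted and lysosomal proteins were mixed. Among matrix genes 6 of 20 were lower and 6 higher: Timp1, an inhibitor of metalloproteinases, fell from 277 to 63.2 FPKM, while Mmp9 rose from 6.78 to 105 and the urokinase gene Plau from 38.5 to 112. Thbs1 and Spp1 were not called. In the complement list 5 of 14 were lower and 4 higher. Cfb, factor B of the alternative pathway, had 23.9 FPKM in WT NT, 534 (374 to 695) in WT CDG, 42.3 in Tmem173-/- NT and 39.0 (28.2 to 49.9) in Tmem173-/- CDG, and Serping1, the C1 inhibitor, 5.80 and 0.170 FPKM after treatment. C3 was not called, at 256 and 189.7 FPKM. In the lysosome list 6 of 29 were lower and 5 higher. Npc2, which carries cholesterol in lysosomes, had 787 and 128 FPKM and the protease Lgmn 127 and 39.3, whereas Lipa, the acid lipase, rose from 67.7 to 315 FPKM.

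Of 24 genes of the unfolded protein and stress response, 4 were lower and 2 higher, and none was called in untreated cells. The lower ones were Ddit3, Ppp1r15a, Atf3 and Trib3. Ddit3 (CHOP) had 62.4 FPKM (42.0 to 82.8) in WT CDG and 10.7 (4.29 to 17.2) in Tmem173-/- CDG, Ppp1r15a (GADD34) 47.7 and 8.85, and Atf3 480.0 and 111. Atf4, the factor upstream of several of them, and its targets Asns, Chac1 and Sesn2 were not called, with Atf4 at 162 and 153 FPKM. The chaperone gene Hspa5 was not called, at 413 and 399.9 FPKM, and Herpud1 and Sdf2l1 were higher, by 2.12 and 1.18. Antioxidant and metal genes gave 7 lower and 8 higher of 24. Hmox1, which degrades haem, had 423 and 115 FPKM, and the metallothionein gene Mt2 443 and 58.2. Nqo1, Gclm, Gsr and their regulator Nfe2l2 (NRF2) were higher in both states, with treated log2 differences of 1.79, 1.21, 1.32 and 1.30 and untreated ones of 1.63, 1.20, 1.36 and 1.27. Tfrc, the transferrin receptor, had 69.3 FPKM in WT NT, 10.9 in WT CDG, 27.4 in Tmem173-/- NT and 38.6 in Tmem173-/- CDG, so that the knockout was lower without c-di-GMP and higher with it. Among 19 genes often used as references, Ubb was lower (-1.11) and Gusb higher (1.11), and Actb, Gapdh and Ppia were not called.

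The largest changes outside the lists were also looked at. Krt16, a keratin, had 0.0523 FPKM in WT NT and 133 (102 to 163) in WT CDG and was listed at 0 in both knockout conditions. Ubd (FAT10), a ubiquitin-like modifier, had 5.27 FPKM in WT NT, 137 (101 to 173) in WT CDG, 0.0402 in Tmem173-/- NT and 0.0186 in Tmem173-/- CDG. In both genes the WT CDG value stood far above the other 3. Among the rises, the corepressor gene Hr had 10.2 FPKM in WT NT, 0.131 (0.0653 to 0.203) in WT CDG, 20.8 in Tmem173-/- NT and 20.9 (16 to 25.7) in Tmem173-/- CDG. Galnt9, a glycosyltransferase of mucin-type sugars, had 0.433, 0.106, 14.2 and 14.8 FPKM in that order. Ptx3, a secreted pattern recognition protein, had 4.08, 7.65, 174 and 179 FPKM, high in the knockout in either state.

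How much of the difference was present without c-di-GMP was read from WT NT and Tmem173-/- NT, which share no value with the treated comparison. There, 661 of 11101 genes were lower in Tmem173-/- (5.95%) and 560 higher (5.04%), 11.0% together. Of the genes lower after treatment 475 were also lower before it, which is 31.2% of the treated and 71.9% of the untreated list, and of the higher genes 334 were shared, 22.9% and 59.6%. The difference of the genes lower after treatment was, as their choice by the treated values favours, more than 2-fold wider with c-di-GMP than without in 938 (61.5%), within 2-fold in 560 and narrower in 26. For the higher genes these numbers were 891 (61.2%), 552 and 13. The granzyme genes Gzma, Gzmb and Gzmc, Arg1, Retnla and Ccl24 are examples of a fall of like size in both states, and Ifng, Rsad2, Cd40 and Ptgs2 of one that is wider with c-di-GMP. For Gzma and Ifng, listed at 0 in either knockout condition, these sizes reflect only the WT values and the added 0.1 FPKM.

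**Figure D5:**
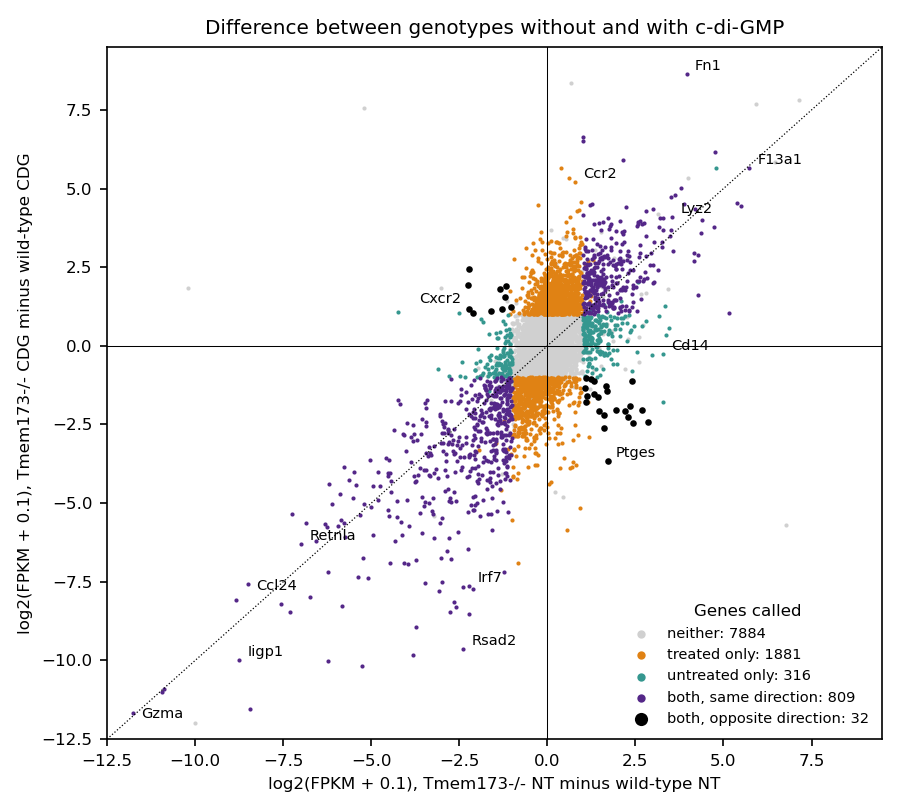
Log2 difference between Tmem173-/- and WT for genes tested in both states, untreated on the horizontal and treated on the vertical axis, coloured by where a gene was called; the dotted line marks equal differences. Orange points, called with c-di-GMP alone, spread vertically around 0, Gzma and Ccl24 lie near the dotted line, and the 32 black points were called in opposite directions.

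A total of 32 genes were called in opposite directions in the 2 states. In 22 of them the knockout was higher untreated and lower treated. In each of the 5 named here WT NT was the lowest and WT CDG the highest of the 4 values. The opposite calls by which these genes were chosen favour that order. Clec4e had 12.6 FPKM in WT NT, 234 in WT CDG, 58.1 in Tmem173-/- NT and 55.7 in Tmem173-/- CDG. H2-M2, a non-classical MHC gene, had 9.92, 175, 30.5 and 37.8 FPKM in that order. Fth1, the ferritin heavy chain and among the most abundant transcripts, had 2311, 10005, 5749.6 and 4655 FPKM, and Ctsk (cathepsin K) 2.29, 19.2, 6.49 and 4.51. Clu, the extracellular chaperone clusterin, had 7.94, 54.6, 21.5 and 17.7 FPKM. The other 10 were lower untreated and higher treated. Cdh1 (E-cadherin) had 49.4 FPKM in WT NT, 6.06 in WT CDG, 21.7 in Tmem173-/- NT and 23.2 in Tmem173-/- CDG, and the tight junction gene Cldn1 48.6, 6.59, 11.2 and 13.7. Il1r1, the IL-1 receptor, had 5.08, 0.925, 2.0 and 2.20 FPKM.

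Other calls made before treatment were not made after it. In all, 186 genes that were lower and 226 that were higher in untreated Tmem173-/- BMDCs lacked a call in the same direction with c-di-GMP. These counts include the 10 and 22 genes with opposite calls, and genes that were not tested after treatment. Cd14, a co-receptor of TLR4, had 18.5 FPKM (12 to 23.7) in WT NT and 181 (116 to 210.0) in Tmem173-/- NT, against 181 (117 to 211) and 151 (96.2 to 173) after c-di-GMP. Tlr2 went from 21.0 and 87.9 FPKM to 67.3 and 83.9, and the lectin gene Clec4d from 14 and 110.1 to 107 and 88.3. Cxcl3, a neutrophil attractant, was at 15.9 and 143 FPKM untreated and at 82.4 (53.1 to 95.2) and 161 (107 to 192) treated, and Il1f9 (IL-36 gamma) at 3.87 and 40.7 and then 28.3 and 36.4. In these 5 genes the level of WT with c-di-GMP came within 2-fold of a level that the knockout had with or without it. Their choice for lacking a call after c-di-GMP favours such closeness, so it is a description only.

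In treated cells of the other knockouts the leading genes of this comparison are given as values side by side. Rsad2 had 362 FPKM in Irf1-/- CDG and 518 in Irf3/7-/- CDG, and Cd40 457 and 305. Nos2 had 65.1 and 779.9 FPKM and Ptgs2 0.843 and 125, with the Irf1-/- value the smaller in both. Ccr2 had 60.5 and 9.42 FPKM and Kif20a 3.93 and 3.75, while Fn1 had 8.56 and 5.94. Gzma, the largest fall, had 8.40 FPKM in Irf1-/- CDG and 899.8 in Irf3/7-/- CDG.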

How the data were processed

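RNA-seq was made from BMDCs of 4 genotypes with and without c-di-GMP, 2 samples per condition. FPKM values were made by the authors, who combined the samples of a condition in Cuffdiff (version 1.06 and build mm9 per the submitters' processing notes), and were deposited with the bounds of a confidence interval and a status per gene. The listed loci overlap the RefSeq loci of GRCm38.p6 for 98.9% of the symbols found there, so they match that build and not mm9. The methods of the study name an opposing-strand setting for its Seqmonk pipeline; the aligner, the annotation and the strand setting behind the FPKM are not given in the sources used here. Values of 4 further columns belong to another knockout and were not used.

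Genes were grouped by condition from the labels. The call rule, with its 0.1 FPKM pseudocount, 2-fold threshold and 1 FPKM minimum, is an interval rule and gives no p-value. It was tested on simulated data, with no outcome given here. How the rule holds against variation between cultures was not tested. With combined samples the intervals are the only error measure, and Cuffdiff widens or narrows them with its own model of the spread. Of 23356 genes, 21 with at least 1 FPKM were left out for their status, and 2083 tested genes share a listed locus with another gene, so that reads of overlapping or alike genes may be split between them.

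The comparison, the 36 gene lists (29 of function, 7 of cell type markers) and the rule for named genes were chosen with earlier results of these data known. The rule took the 10 largest falls and rises among genes with at least 10 FPKM, up to 3 called genes per list and direction with at least 5 FPKM, and interferon, IRF, MHC and defining marker genes. Any other gene was chosen after its values were seen, and some genes that the rule names are not reported here. Promoter windows come from RefSeq, matched by symbol. Alternatives were other pseudocounts, minimum levels, fold thresholds and interval rules, and centring. Python 3.11.15, numpy 2.4.6, pandas 2.3.3 and matplotlib 3.10.9 were used.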

Additional observations from a re-analysis of the deposited data

How the results depend on the processing

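No paired analysis was possible because the authors combined the samples of each condition before deposition, and for the same reason no replicate could be left out. Against 1524 lower and 1456 higher genes after c-di-GMP, and 661 and 560 without it, requiring more than 4-fold gave 737, 437, 279 and 143, and the differences widened by treatment numbered 575 among lower and 331 among higher genes. A minimum of 5 FPKM gave 421 lower genes without c-di-GMP. Under every other alternative that was run these counts stayed within 1.5 times, and no named gene changed direction. At more than 4-fold, 35 of 142 named genes lost their call and 32 of 72 counts of list members moved by more than 1.5 times, against at most 6 under any other alternative. A pseudocount of 1 FPKM removed 3 calls (Icosl, Bcl2 and Tlr8) and centring 1 (Bcl2). Leaving out genes that share a locus took 19 named genes away, and leaving out genes whose FPKM lies outside its own interval took 2; both alternatives were chosen after seeing the data. Within 150 bases before the start, 1.59% of all promoter windows held the GAAA pair, 4.09% the GAS letters and 0.228% the NF-kB letters. Depth is unknown, and with combined samples a difference between single cultures cannot be told from one between genotypes.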

Other observations

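Transcripts of other blood lineages were mostly low in both cultures after c-di-GMP, except the platelet gene Pf4, which is described with the chemokines. With Pf4, the erythroid and platelet list summed to 53.0 FPKM in WT CDG and 171 in Tmem173-/- CDG. Hbb-b1, a beta globin gene, was lower in Tmem173-/- CDG, with 9.99 FPKM in WT NT, 35.7 (26.8 to 44.4) in WT CDG, 1.33 in Tmem173-/- NT and 1.44 (0.680 to 2.21) in Tmem173-/- CDG. The alpha globin genes Hba-a1 and Hba-a2 and the haem synthesis gene Alas2 of red cell precursors were under 0.2 FPKM in all 4 conditions, so that Hbb-b1 stood alone among them. Of the B cell genes, Cd79a and Ms4a1 were higher in the knockout, at 0.123 and 0.0102 FPKM in WT CDG and 2.04 and 1.63 in Tmem173-/- CDG. The 1 FPKM minimum admitted these genes through Tmem173-/- CDG alone, and Col1a2 through WT CDG alone. Col1a2, a collagen gene of stromal cells, had 0.0208 FPKM in WT NT, 6.78 (5.16 to 8.40) in WT CDG, 0.468 in Tmem173-/- NT and 0.561 in Tmem173-/- CDG, while Col1a1 was at 0.0601 and 0.444 FPKM after treatment.

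Further genes called in opposite directions in the 2 states had the same shape as those in the report. Ptafr, the receptor of platelet-activating factor, had 14.7 FPKM in WT NT, 82.5 in WT CDG, 35 in Tmem173-/- NT and 39.9 in Tmem173-/- CDG. Nupr1, a stress-induced nuclear protein, had 2.16, 37.3, 12.2 and 6.79 FPKM in that order, and Pgf, placental growth factor, 0.10, 9.18, 1.36 and 1.63. In all 3 the WT values lay on either side of the knockout values, which the choice by opposite calls favours. Fpr1, a receptor for bacterial peptides, and the peroxiredoxin gene Prdx1 were called without c-di-GMP alone, at 30.3 and 788 FPKM in WT NT and 102 and 2164 in Tmem173-/- NT, against 109 and 2259 in WT CDG and 93.1 and 1985 in Tmem173-/- CDG.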
